A study of Mus musculus with 11 samples.

Results

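The genes described here make up the machinery that shows peptides to T cells on molecules of the major histocompatibility complex (MHC). They were taken by name: every gene whose symbol starts with H2-, the mouse MHC prefix, together with 18 genes for the light chain, peptide supply, loading and transcriptional control. The rule found 42 genes in each of the 2 deposited tables, and the same 42 in both, of 20348 genes present in either table. Of the 42 genes, 26 belong to the class I pathway and 14 to the class II pathway. The remaining 2 are Cd1d1, which presents lipids, and H2-Ke6, a steroid dehydrogenase named for its place in the MHC region.

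The RNA came from primary mesenchymal stromal cells, the adherent cells of bone marrow that form bone and fat and support blood formation. Knockout of ANXA2 was represented by 3 libraries, knockout of ANXA5 by 4, and wild type (WT) by 4. All mice were of the C57/BL6 background, and no library was treated. ANXA2 and ANXA5 are annexins, which bind membranes in a calcium-dependent way; how the alleles were made, and whether libraries of a group came from separate animals or cultures, is not given in the sources used here. The p-values therefore measure the spread between these libraries, which may be technical.

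MHC class I molecules consist of a heavy chain and the light chain B2m and carry peptides that the proteasome makes inside the cell. Class II molecules consist of an alpha and a beta chain, are escorted by the invariant chain Cd74, and carry peptides from the endosome. Most cell types express class I, whereas class II is mainly a property of dendritic cells, macrophages and B cells and can be induced in stromal cells by interferon gamma. NLRC5 is the transactivator of class I genes and CIITA that of class II genes. Both act through the RFX complex (RFX5, RFXAP, RFXANK), CREB and NF-Y, which bind the X and Y boxes of MHC promoters.

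The libraries held 23.3 to 35.7 M reads over the genes of the tables. The labelled targets were low in the libraries of their own group. Anxa2 had 10427, 8041 and 7159 normalised reads in ANXA2 KO libraries 1, 3 and 4, against 31163, 30240, 27947 and 29937 in WT libraries 1 to 4, which left 28.6% of the WT mean. Anxa5 had 2383, 2295, 2426 and 2331 normalised reads in ANXA5 KO libraries 1 to 4, against 27595, 25599, 23423 and 25498 in WT, or 9.24% of the WT mean. For ANXA2 KO, the library numbers are the ones in the column headers, which differ from the numbers in the sample titles. The tables were scaled separately, so the same WT libraries have slightly different values in the ANXA2 and ANXA5 comparisons. Because the comparisons share these 4 WT libraries, the knockouts were not compared with each other, and the difference between their effects was not tested.

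The promoters of the classical class I genes H2-D1 and H2-K1 and of H2-Q6 and H2-Q7 are shown first, because these 4 genes share letters upstream of the start that few other genes carry. They are followed by stretches of B2m, H2-Aa and H2-DMb1, members of both classes whose values are given below. The sequences are from RefSeq on GRCm38.p6, a build other than the GRCm39 of the deposited data, and are written 5′ to 3′ on the strand of the gene. Capitals mark matches to GGGATTCCC (the core of an NF-kappa B site) and TTTCNNTTC (the core of an interferon response element). They also mark TGACG or its reverse complement CGTCA (letters of the X2 box). ATTGG (letters of the Y box, the reverse complement of CCAAT) is marked too. The stretches lie at chr17:35262912-35263034 (+) for H2-D1, chr17:34000348-34000469 (-) for H2-K1, chr17:35424666-35424787 (+) for H2-Q6, chr17:35439011-35439131 (+) for H2-Q7, chr2:122147562-122147650 (+) for B2m, chr17:34287855-34287943 (-) for H2-Aa and chr17:34153058-34153146 (+) for H2-DMb1.
H2-D1: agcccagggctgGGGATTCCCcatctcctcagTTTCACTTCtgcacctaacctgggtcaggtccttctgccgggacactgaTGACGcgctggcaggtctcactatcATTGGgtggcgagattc
H2-K1: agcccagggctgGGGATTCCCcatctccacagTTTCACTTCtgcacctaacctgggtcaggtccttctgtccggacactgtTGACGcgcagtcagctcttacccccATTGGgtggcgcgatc
H2-Q6: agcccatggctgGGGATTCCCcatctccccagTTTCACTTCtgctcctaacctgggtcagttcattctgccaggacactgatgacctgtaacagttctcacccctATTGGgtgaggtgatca
H2-Q7: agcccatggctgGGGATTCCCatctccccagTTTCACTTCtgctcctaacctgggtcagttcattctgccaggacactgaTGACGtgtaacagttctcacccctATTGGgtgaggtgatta
B2m: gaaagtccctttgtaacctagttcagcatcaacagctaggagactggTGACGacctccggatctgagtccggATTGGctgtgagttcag
H2-Aa: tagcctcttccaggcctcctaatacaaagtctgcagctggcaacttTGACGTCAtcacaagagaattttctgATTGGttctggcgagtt
H2-DMb1: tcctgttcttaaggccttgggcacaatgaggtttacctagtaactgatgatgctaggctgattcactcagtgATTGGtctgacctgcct

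The printed H2-Q6 and H2-Q7 stretches differed by 3 edits and those of H2-D1 and H2-K1 by 13, while each of the remaining pairs among these 4 genes differed by 20 or 21. RefSeq windows of 300 bases around the start were available for 31 of the 42 genes. A gene was counted if any of its windows held the letters. The share over all windows counts single windows, so the units of these shares differ. On both strands, GGGATTCCC was found in the windows of H2-D1, H2-K1, H2-Q6 and H2-Q7 alone among these 31, and in 0.353% of all 32851 windows. TTTCNNTTC was found for 8 of the 31 genes and in 7.52% of all windows. TGACG was in 12 of 31, against 20.8% of all windows, and ATTGG in 25 of 31, against 37.4%. The letters TGACG or CGTCA followed by ATTGG after 10 to 25 bases occurred in 6 of the 31 (B2m, H2-Aa, H2-D1, H2-K1, H2-M3 and H2-Q7) and in 0.527% of all windows. The capitals of H2-Aa hold 2 overlapping matches to the X2 letters, one on each strand. These letters were chosen after the sequences were seen, and a match describes the sequence only.

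Per kilobase of annotated exon, levels were highest for the classical class I gene H2-D1 and its light chain, and lowest for a class II chain. In the ANXA5 table, H2-D1 averaged 24680 ± 3247 normalised reads per kilobase in ANXA5 KO libraries and 22403 ± 1972 in WT (SD, n = 4 each). B2m followed with 19034 ± 1807 in ANXA5 KO and 17426 ± 348 in WT. Their ranges in the ANXA5 KO libraries overlapped slightly, 20940 to 28208 for H2-D1 and 16688 to 21021 for B2m. Both genes were lowest in library 3 and highest in library 2, and H2-D1 lay above B2m within each ANXA5 KO library. Cd74 came next with 9859 ± 1462 reads per kilobase in ANXA5 KO and 7064 ± 604 in WT, above Pdia3 and H2-K1. The class II beta chain H2-Ab1 had 1709 ± 280 in ANXA5 KO and 1336 ± 92.6 in WT. The alpha chain H2-Aa had 525 ± 87.6 in ANXA5 KO and 462 ± 53.7 in WT. The transactivators were among the lowest, with 52.4 ± 2.19 for Nlrc5 in ANXA5 KO and 35.4 ± 9.84 in WT, and 21.8 ± 3.21 for Ciita in ANXA5 KO and 15.8 ± 5.095 in WT. H2-Eb2 was lowest in both groups. Exon lengths came from an annotation of the older build and count every annotated exon, so the order between genes is approximate.

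**Figure D1:**
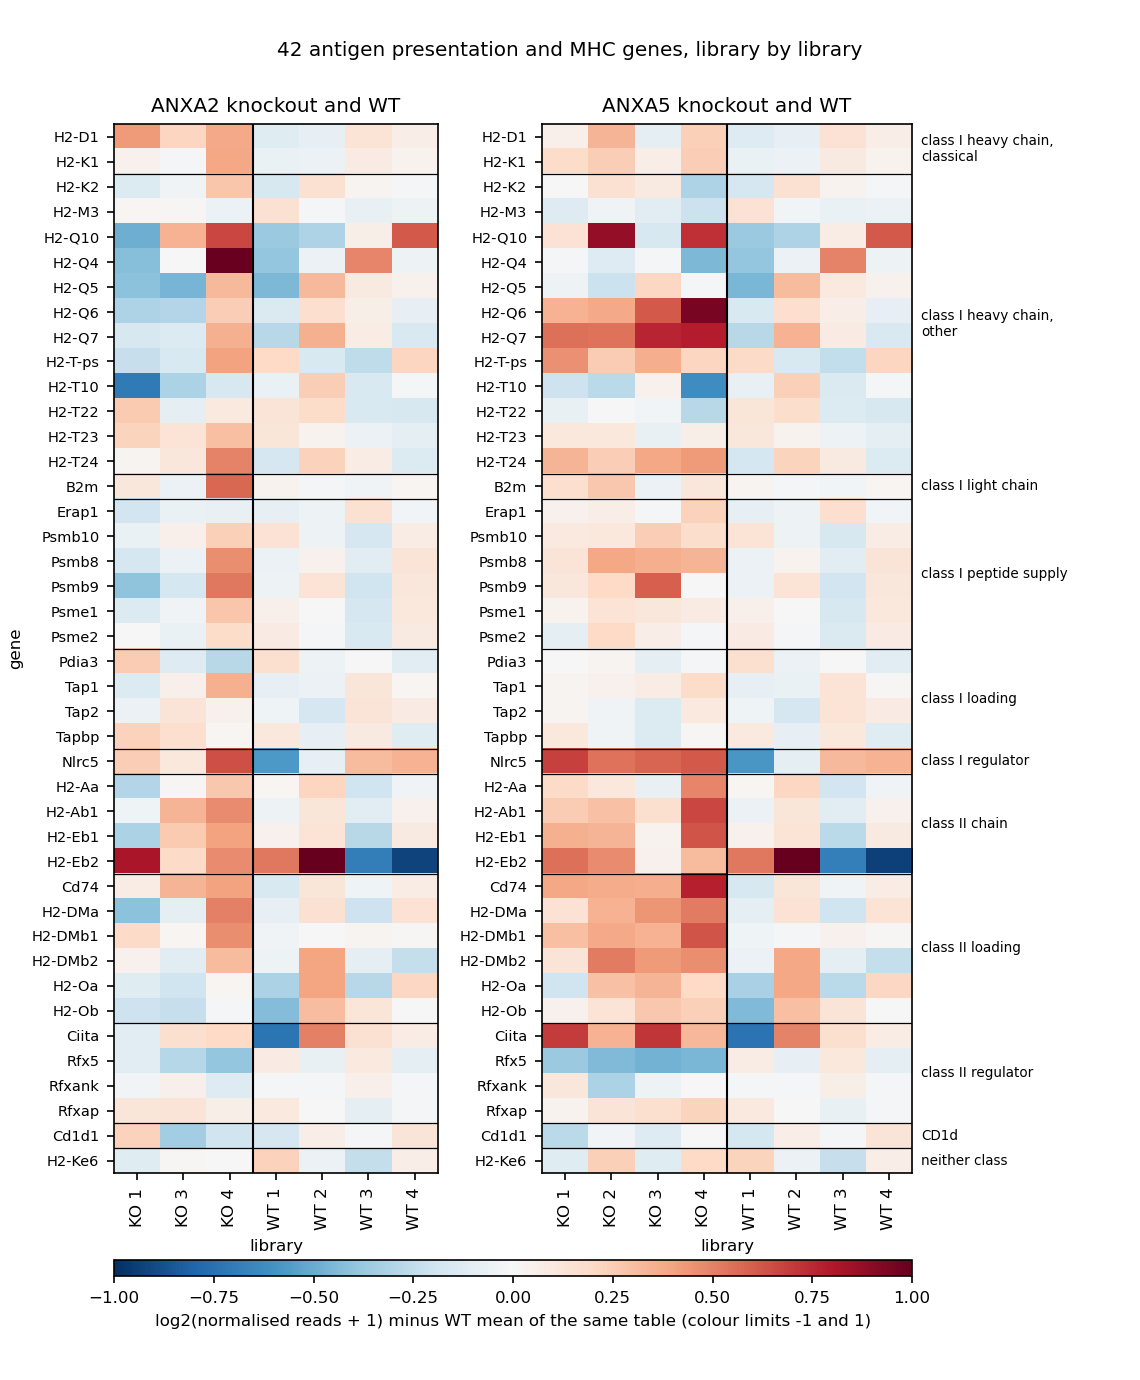
Each row is 1 of the 42 genes, grouped by role, and each column a library, with knockout libraries left of WT in both panels. Colour is log2(normalised reads + 1) minus the mean of the 4 WT libraries of the same table, limited to -1 and 1. The class II chains and loading genes are mostly above the WT mean in ANXA5 KO libraries, Rfx5 is below it in all 4, and in the ANXA2 panel library 4 has the most genes above it.

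The ANXA5 knockout was set against WT to ask how these genes differ when ANXA5 is missing. In ANXA5 KO libraries most class II genes lay above WT: all 10 chains and loading genes had a higher mean, with log2 differences between 0.16 and 0.47. Cd74 was 1.40-fold and H2-DMb1 1.34-fold as high as in WT. Among class I genes, the Qa-2 genes H2-Q6 and H2-Q7 were 1.503-fold and 1.56-fold as high and the class I transactivator Nlrc5 1.48-fold, while H2-K1, H2-D1 and B2m stood at 1.14-fold, 1.10-fold and 1.09-fold. Rfx5, the DNA-binding subunit of the RFX complex, was lower at 0.737 of the WT mean.

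None of these differences passed the threshold. All 42 genes passed the filter on low values, and 0 of 42 had a limma adjusted p under 0.05, where 0.0308% of the 16224 genes tested did. Without adjustment, 12 of the 42 genes (28.6%) had a limma p under 0.05, where 11.9% of all genes did. Of these, 11 were higher in ANXA5 KO, against 6.48% of all genes, and 1 was lower, against 5.45%. The 11 comprised 5 class I genes (H2-Q7, H2-Q6, H2-T24, Psmb8 and Nlrc5) and 6 class II genes (Cd74, H2-DMb1, H2-DMa, H2-DMb2, H2-Ab1 and H2-Eb1). The edgeR quasi-likelihood test on the recovered reads also called 0 of 42 genes, beside 0.0308% of all genes. DESeq2 on the same reads called 5 of the 41 genes to which it gave an adjusted p, and 1.89% of 14959 genes overall. Those 5, Rfx5, H2-Q7, Cd74, H2-DMb1 and H2-Q6, also had an adjusted p under 0.05 in the authors' deposited table, in which 1.76% of 15949 genes did. The submitters' processing notes list DESeq2 too, so the deposited values are not a further, separate test. The call for these 5 genes thus depended on the test.

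The class II pathway genes had a median log2 difference of 0.34 in ANXA5 KO minus WT and the class I pathway genes one of 0.09, beside 0.01 over all genes tested. Of the class II genes, 12 of 14 had a difference above 0, as had 17 of 26 class I genes and 52% of all genes. The median over the class II genes, relative to the WT mean, was 0.17, 0.32, 0.22 and 0.40 in ANXA5 KO libraries 1 to 4, against -0.05, 0.14, -0.08 and 0.01 in WT libraries 1 to 4. All 4 ANXA5 KO libraries thus lay above all 4 WT libraries, with library 4 the highest and WT library 2 the nearest. Without ANXA5 KO library 4 the class II median was 0.24, and without WT library 3 it was 0.23. With edgeR on all libraries it was 0.26. In that test H2-Eb2, at a mean of 14.3 normalised reads in ANXA5 KO and 13.1 in WT, differed by 0.09, against 0.35 in limma.

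Cd74, the invariant chain that blocks the class II groove until a peptide is loaded, had 15435, 15321, 15223 and 20233 normalised reads in ANXA5 KO libraries 1 to 4, against 10586, 12860, 11539 and 12457 in WT. The groups did not overlap, and library 4 stood well above the other ANXA5 KO libraries. The log2 difference was 0.47 (SE 0.119), with a limma adjusted p of 0.230, a DESeq2 adjusted p of 0.0147 and, in the authors' deposited table, an adjusted p of 0.0199. Without library 4 it was 0.37, the lowest value with any 1 library left out.

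H2-DMb1, a subunit of the H2-DM molecule that exchanges the Cd74 fragment for peptide, had 420, 442, 434 and 527 normalised reads in ANXA5 KO libraries 1 to 4, against 330, 338, 350 and 343 in WT. Here too the groups were apart and ANXA5 KO library 4 was highest. The log2 difference was 0.41 (SE 0.100), with adjusted p values of 0.230 in limma, 0.0181 in DESeq2 and 0.0234 in the authors' deposited table. Its partner H2-DMa averaged 742 ± 81.3 in ANXA5 KO and 577 ± 68.0 in WT (SD, n = 4 each), with overlapping groups. H2-DMb2, which shares 24.8% of its 50-base windows with other genes, most often with H2-DMb1, averaged 304 ± 34.8 in ANXA5 KO and 235 ± 47.1 in WT. Reads of these beta chain genes could be split between them, and their separate values are uncertain.

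H2-Ab1, the beta chain of the I-A molecule, had 4085, 4191, 3836 and 5445 normalised reads in ANXA5 KO libraries 1 to 4, against 3293, 3719, 3188 and 3523 in WT. The groups did not overlap, and the log2 difference was 0.34 (SE 0.114, limma adjusted p = 0.323). H2-Aa, its alpha chain partner, had 1993, 1873, 1660 and 2448 in ANXA5 KO, against 1766, 2020, 1528 and 1701 in WT. These groups overlapped, and the difference of 0.18 had a 95% interval of -0.11 to 0.46 on the log2 scale; it was 0.07 without ANXA5 KO library 4 and 0.11 without WT library 3. H2-Eb1, the beta chain of the I-E molecule, had 1907, 1882, 1527 and 2299 in ANXA5 KO, against 1532, 1635, 1237 and 1585 in WT, with the lowest ANXA5 KO library below 3 of the WT libraries. Its difference was 0.34 (SE 0.134, limma adjusted p = 0.374). H2-Oa and H2-Ob, subunits of the H2-DO molecule that restrains H2-DM, differed by 0.16 and 0.17 with overlapping groups.

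Ciita, the class II transactivator, had 233, 183, 236 and 181 normalised reads in ANXA5 KO libraries 1 to 4, against 85.7, 203, 161 and 151 in WT. WT library 2 lay within the ANXA5 KO range and WT library 1 far below it. The log2 difference was 0.52 (SE 0.242, limma adjusted p = 0.433), and it was 0.28 without WT library 1. Rfx5 had 304, 290, 283 and 286 in ANXA5 KO, against 415, 373, 423 and 367 in WT. All 4 ANXA5 KO libraries lay below all WT libraries and within a narrow range. The log2 difference was -0.44 (SE 0.0954), with adjusted p values of 0.217 in limma, 0.00584 in DESeq2 and 0.00772 in the authors' deposited table. Rfxap and Rfxank, the remaining RFX subunits, differed by 0.14 and -0.06 with overlapping groups, so Rfx5 was the only one of these 3 genes with separate groups.

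**Figure D2:**
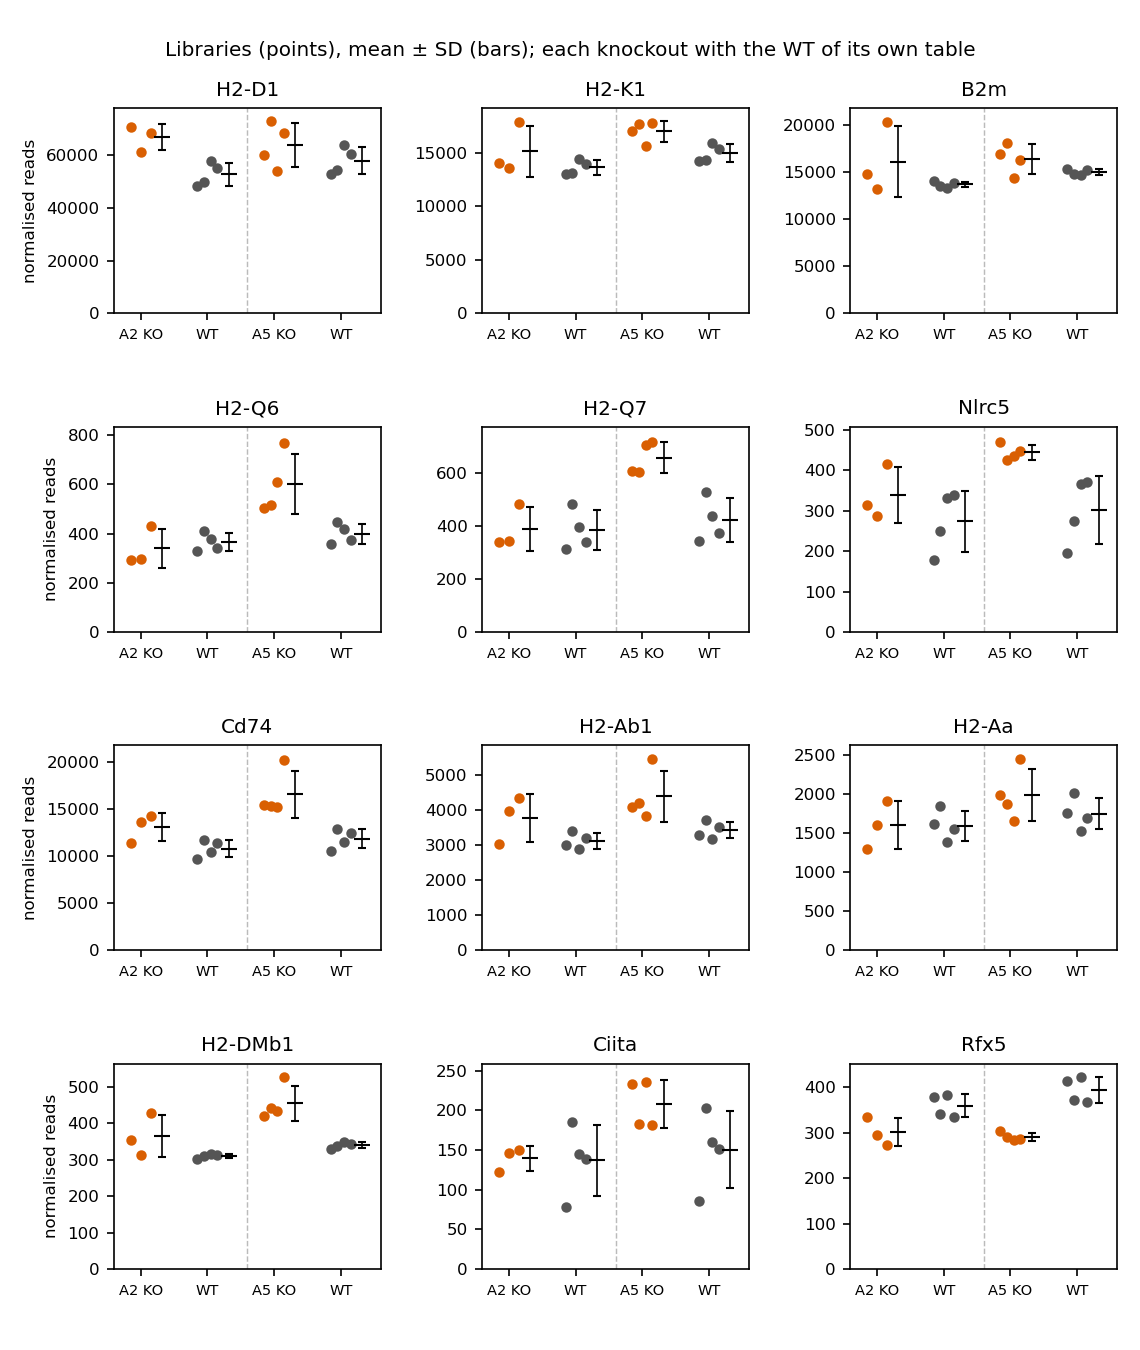
Normalised reads of 12 genes on linear axes from 0, with 1 point per library and the mean ± SD beside the points; A2 KO and A5 KO are the ANXA2 and ANXA5 knockouts, each left of the WT of its own table. ANXA5 KO and WT points are apart for Cd74, H2-Ab1, H2-DMb1, H2-Q6, H2-Q7, Nlrc5 and Rfx5, and ANXA2 KO and WT points for H2-D1 and Rfx5.

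Among class I genes the clearest separation was in the Q region. H2-Q7 encodes the Qa-2 antigen, a nonclassical class I molecule that can be anchored by a lipid, and had 608, 604, 703 and 714 normalised reads in ANXA5 KO libraries 1 to 4, against 342, 529, 439 and 373 in WT. Its log2 difference was 0.66 (SE 0.141), with adjusted p values of 0.217 in limma, 0.00819 in DESeq2 and 0.0085 in the authors' deposited table. H2-Q6, a close relative that also encodes Qa-2, was given in full because DESeq2 called it, a choice made after its values were seen. It had 506, 518, 609 and 770 in ANXA5 KO, against 358, 447, 418 and 376 in WT. Both genes were apart between the groups, and ANXA5 KO library 4 was again the highest. The log2 difference of H2-Q6 was 0.57 (SE 0.145), with adjusted p values of 0.230 in limma, 0.0255 in DESeq2 and 0.0289 in the authors' deposited table.

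The annotated transcripts of H2-Q6 and H2-Q7 share 31.97% and 26.4% of their 50-base windows with other genes, and their promoters printed above are near copies. The counts of both are therefore uncertain as values of separate genes. The same holds for H2-Q5, H2-T22, H2-T10, H2-T-ps, Psme2 and H2-Ke6, which make up the 8 genes with more than 25% of windows shared. H2-Q5 differed by -0.02 and H2-Q4 by -0.15 in ANXA5 KO, unlike the 2 Qa-2 genes, a contrast that was not tested. H2-Q10, a secreted class I molecule best known from liver, had 548, 915, 444 and 822 in ANXA5 KO, against 382, 399, 521 and 761 in WT, with overlapping groups.

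Nlrc5 had 469, 426, 436 and 447 normalised reads in ANXA5 KO libraries 1 to 4, against 195, 274, 365 and 370 in WT. The ANXA5 KO libraries were close together and above all WT libraries, which were themselves widely spread. The log2 difference was 0.61 (SE 0.190, limma adjusted p = 0.306), and it ranged from 0.41 to 0.72 with single libraries left out. Psmb8, an interferon-inducible catalytic subunit of the immunoproteasome, averaged 2236 ± 178 in ANXA5 KO and 1809 ± 130 in WT (SD, n = 4 each) without overlap. All 6 peptide supply genes had a difference above 0, between 0.04 and 0.30, and Psmb8 was the only one with an unadjusted p under 0.05.

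The classical class I molecule itself differed little. H2-K1, a classical heavy chain, had 16994, 17653, 15592 and 17715 normalised reads in ANXA5 KO libraries 1 to 4, against 14235, 14313, 15925 and 15289 in WT. Its groups overlapped through ANXA5 KO library 3, and the difference was 0.19 (95% interval -0.02 to 0.39, limma adjusted p = 0.445). H2-D1, the more abundant classical heavy chain, had 59773, 72747, 54005 and 68073 in ANXA5 KO, against 52800, 54352, 63674 and 60286 in WT. These values interleaved, and the difference was 0.13 with an interval of -0.19 to 0.46; it was 0.07 without ANXA5 KO library 2 and 0.21 without ANXA5 KO library 3. B2m, the light chain, had 16843, 18078, 14352 and 16205 in ANXA5 KO, against 15304, 14761, 14703 and 15179 in WT, with a difference of 0.12 (interval -0.09 to 0.34), which was 0.07 without ANXA5 KO library 2 and 0.18 without ANXA5 KO library 3. The loading genes Tap1 and Tap2 (the peptide transporter), Tapbp (tapasin, which bridges it to class I) and Pdia3 (a chaperone of the loading complex) differed by -0.02 to 0.08.

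H2-T23, which encodes Qa-1, a ligand of natural killer cell receptors, had 4305, 4302, 3790 and 4169 normalised reads in ANXA5 KO libraries 1 to 4, against 4329, 4096, 3864 and 3733 in WT. The ranges nearly coincided, and the difference was 0.05 (limma adjusted p = 0.822). The 12 class I heavy chains other than H2-K1 and H2-D1 ranged from -0.26 for H2-T10 to 0.66 for H2-Q7, with 6 above 0 and a median of 0.01. Among them H2-T24 and the pseudogene H2-T-ps also had separate groups, with averages of 299 ± 15.9 and 75.3 ± 5.85 in ANXA5 KO and 235 ± 31.1 and 60.4 ± 9.95 in WT. In all, 10 of the 42 genes (23.8%) had groups without overlap, where 6.37% of all genes did: 9 were higher in ANXA5 KO, against 3.01% of all genes, and Rfx5 was lower, against 3.36%. Cd1d1 and H2-Ke6 differed by -0.11 and 0.05.

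**Figure D3:**
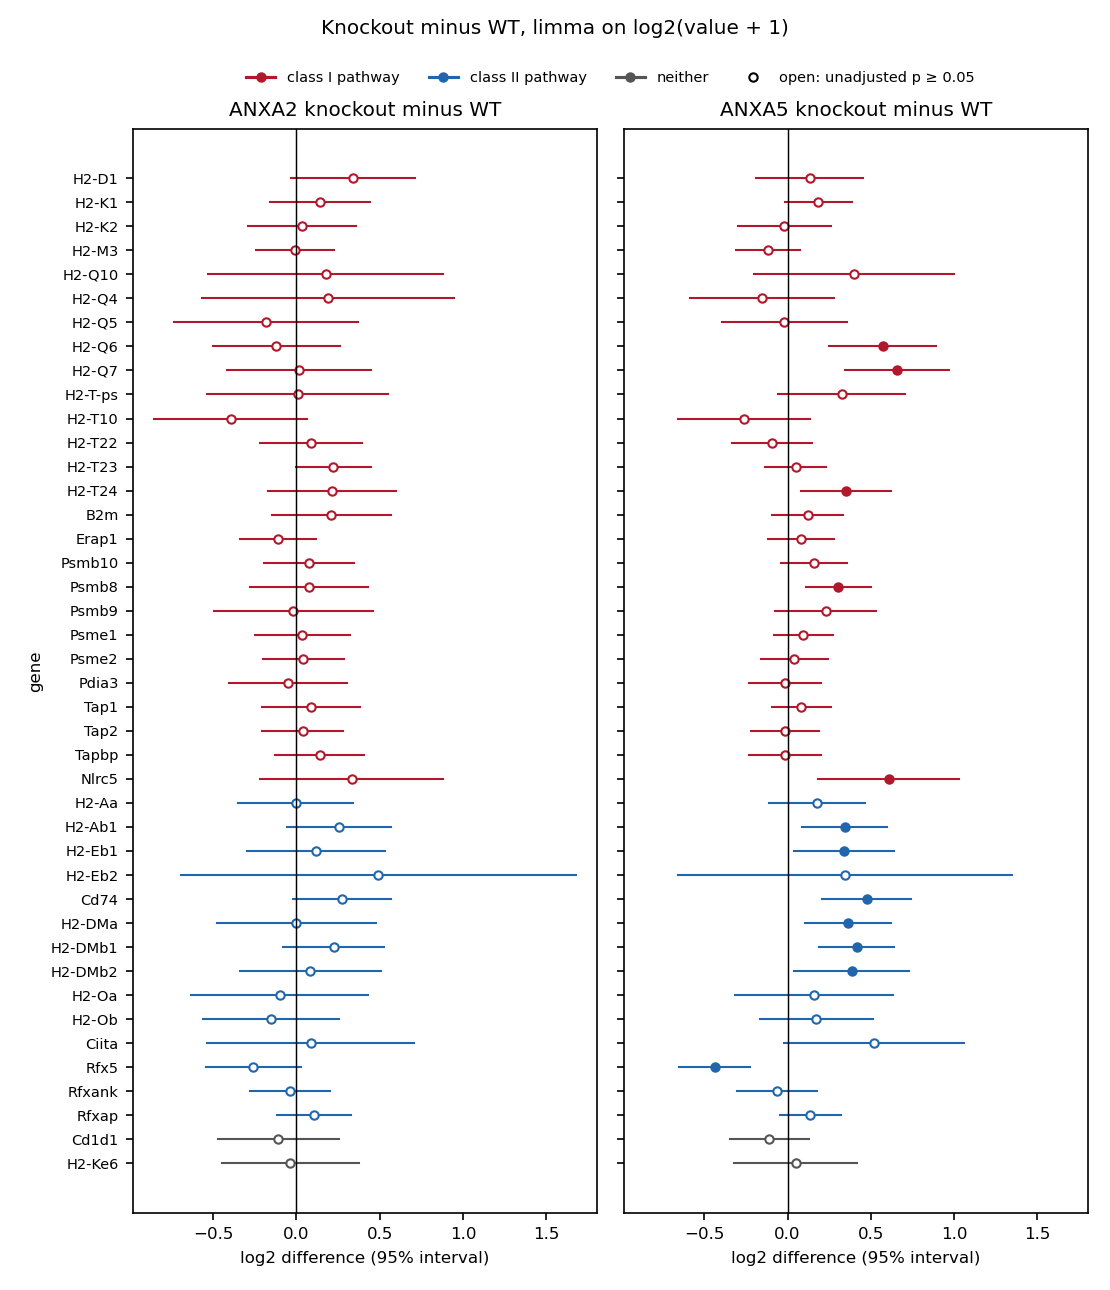
Log2 difference of each gene with its 95% interval from limma, ANXA2 KO minus WT on the left and ANXA5 KO minus WT on the right; class I genes are red, class II genes blue, and the others grey, and filled points have an unadjusted p under 0.05. There are 0 filled points on the left and 12 on the right, of which 11 lie above 0, and no gene had an adjusted p under 0.05 in either panel.

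The ANXA2 knockout was set against WT in the same way. No gene of either class passed the threshold: 0 of 42 had a limma adjusted p under 0.05, where 0.112% of 16123 genes did, and 0 of 42 had an unadjusted p under 0.05, where 8.69% did. The edgeR test called 0 of 42 genes (0.13% of all genes), DESeq2 called 0 (0.645% of 16113 genes), and the authors' deposited table had 0 of them under 0.05 (0.593% of 17374 genes). The largest log2 differences in size after H2-Eb2 were those of H2-T10 at -0.39, H2-D1 at 0.34 and Nlrc5 at 0.33, the last of which was 0.14 without WT library 1. H2-Eb2, a rarely expressed class II beta chain, differed by 0.49 at a mean of 14.7 normalised reads in ANXA2 KO and 11.96 in WT, with an interval of -0.69 to 1.68.

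The median log2 difference was 0.06 for the class I pathway and 0.08 for the class II pathway in ANXA2 KO minus WT, beside 0.02 over all genes tested. Differences above 0 were found for 19 of 26 class I genes and 9 of 14 class II genes, and for 54.1% of all genes. These medians rested on 1 library. The class I median relative to WT was -0.10, -0.03 and 0.32 in ANXA2 KO libraries 1, 3 and 4, against -0.06, -0.02, 0.04 and 0.02 in WT, and the class II median was -0.07, 0.04 and 0.29 in ANXA2 KO, against -0.05, 0.15, -0.09 and 0.01 in WT. Library 4 alone stood above all WT libraries in both. Without it the medians were -0.04 for class I and -0.01 for class II.

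H2-D1 had 70412, 61082 and 68210 normalised reads in ANXA2 KO libraries 1, 3 and 4, against 48279, 49656, 57652 and 54978 in WT. All 3 ANXA2 KO libraries lay above WT, and the log2 difference was 0.34 (SE 0.165, limma adjusted p = 0.582). H2-T23 had the smallest p of the 42 genes, with 4253, 4015 and 4500 in ANXA2 KO, against 3958, 3742, 3498 and 3404 in WT. These groups were apart too, and the difference was 0.22 (SE 0.0996, limma adjusted p = 0.573). Rfx5 had 334, 295 and 274 in ANXA2 KO, against 379, 341, 383 and 335 in WT, so that library 1 lay just below the lowest WT library. Its difference was -0.26 (SE 0.126, limma adjusted p = 0.582). H2-T10, a ligand of gamma delta T cells, was the fourth gene with separate groups and averaged 66.6 ± 12.6 in ANXA2 KO (SD, n = 3) and 87.2 ± 10.8 in WT (SD, n = 4). The share of 4 in 42, or 9.52%, was near the 9.19% of all genes whose groups did not overlap: 2 were higher in ANXA2 KO, against 4.56% of all genes, and 2 were lower, against 4.63%.

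H2-K1 had 14000, 13524 and 17810 normalised reads in ANXA2 KO libraries 1, 3 and 4, against 13016, 13077, 14419 and 13943 in WT. B2m had 14736, 13147 and 20318 in ANXA2 KO, against 13994, 13486, 13312 and 13842 in WT. In both genes library 4 was high and the other ANXA2 KO libraries lay within or near the WT range; the differences were 0.14 and 0.21. Without library 4 they were 0.017 for H2-K1 and 0.028 for B2m, and without library 3 they were 0.22 and 0.34. Nlrc5 had 315, 286 and 416 in ANXA2 KO, against 178, 250, 331 and 338 in WT, with overlapping groups and a difference of 0.33 (SE 0.243), which was 0.14 without WT library 1 and 0.18 without ANXA2 KO library 4.

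Of the class II genes, Cd74 had 11362, 13677 and 14230 normalised reads in ANXA2 KO libraries 1, 3 and 4, against 9679, 11749, 10448 and 11360 in WT. H2-Ab1 had 3024, 3960 and 4342 in ANXA2 KO, against 3011, 3398, 2887 and 3213 in WT. For both, libraries 3 and 4 lay above WT and library 1 within its range; the differences were 0.27 (limma adjusted p = 0.580) and 0.26 (adjusted p = 0.600). That of H2-Ab1 was 0.41 without ANXA2 KO library 1 and 0.15 without ANXA2 KO library 4. H2-Eb1 had 1087, 1627 and 1795 in ANXA2 KO, against 1401, 1494, 1120 and 1446 in WT. H2-Aa had 1298, 1606 and 1918 in ANXA2 KO, against 1615, 1845, 1383 and 1551 in WT. For these chains library 1 was the lowest and library 4 the highest, so that the ANXA2 KO range enclosed that of WT. Their differences were 0.12 (95% interval -0.30 to 0.53) and -0.003 (interval -0.35 to 0.34).

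Ciita had 122, 147 and 150 normalised reads in ANXA2 KO libraries 1, 3 and 4, against 78.4, 186, 146 and 138 in WT, all within the WT range. H2-DMb1 had 353, 315 and 429 in ANXA2 KO, against 302, 309, 317 and 313 in WT, with a difference of 0.22 (SE 0.134) that was 0.10 without ANXA2 KO library 4. H2-Q7 had 337, 344 and 483 in ANXA2 KO, against 313, 483, 397 and 341 in WT, and H2-Q6 had 292, 296 and 431 in ANXA2 KO, against 327, 409, 378 and 343 in WT. For both Qa-2 genes the groups overlapped, with differences of 0.02 (interval -0.42 to 0.45) and -0.12 (interval -0.50 to 0.26). The difference of H2-Q6 ranged from -0.30 without ANXA2 KO library 4 to -0.02 without ANXA2 KO library 1.

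Exact two-sided permutation tests over libraries were run for 9 of these genes in both comparisons. The smallest p the designs allow, 0.0286, was reached by H2-D1 in ANXA2 KO and by Cd74, H2-Ab1 and Nlrc5 in ANXA5 KO, which are the genes among the 9 whose groups did not overlap. Adjusted over the 18 tests, the lowest value was 0.129. A gene at the smallest p could fall under 0.05 after adjustment only if most of the 18 tests reached that p. The adjusted values therefore cannot decide about any single gene.

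Genes that work beside these 42 were read from a list of 38: proteasome subunits, endosomal proteases, chaperones, interferon signalling, promoter-binding factors and costimulatory ligands. In ANXA5 KO 26 of the 38 had a difference above 0, beside 52% of all genes, and 0 passed the limma threshold. An unadjusted p under 0.05 was found for 5 higher genes, beside 6.48% of all genes, and for 2 lower genes, beside 5.45%, so the count of lower genes was at the level of all genes. Ctss, cathepsin S, which trims Cd74 in the endosome, had 2031, 2159, 1877 and 2504 normalised reads in ANXA5 KO libraries 1 to 4, against 1374, 1492, 1393 and 1564 in WT. The groups were well apart, with a log2 difference of 0.55 (SE 0.0995, limma adjusted p = 0.185). Marchf1, a ubiquitin ligase that removes class II from the surface, averaged 187 ± 19.2 in ANXA5 KO and 134 ± 33.4 in WT with overlap. Mr1, which presents vitamin B metabolites, averaged 661 ± 43.9 in ANXA5 KO and 820 ± 61.4 in WT without overlap (limma adjusted p = 0.284). Irf1, an interferon-responsive activator of class I genes and Ciita, had 5758, 6310, 4434 and 5061 in ANXA5 KO, against 8303, 7029, 13023 and 6080 in WT. Its difference of -0.63 (SE 0.215, limma adjusted p = 0.331) ran opposite in sign to those of Nlrc5 and Ciita, and WT library 3 was far above the rest.

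In ANXA2 KO 22 of the 38 genes had a difference above 0, beside 54.1% of all genes, and 0 passed. An unadjusted p under 0.05 was found for 2 higher genes, beside 4.65% of all genes, and for 3 lower genes, beside 4.04%. Lgmn, an asparagine endopeptidase that cleaves Cd74, had 3282, 3052 and 2832 in ANXA2 KO libraries 1, 3 and 4, against 1806, 2168, 2323 and 2595 in WT, with a difference of 0.47 (SE 0.134, limma adjusted p = 0.485). Psmb6, a constitutive proteasome subunit, averaged 2937 ± 178 in ANXA2 KO and 2421 ± 276 in WT. Creb1, which binds the X2 box, averaged 1371 ± 85.7 in ANXA2 KO and 1681 ± 95.4 in WT, and Lnpep, an endosomal aminopeptidase, 833 ± 127 in ANXA2 KO and 1037 ± 34.6 in WT (SD, n = 3 and 4). These 4 genes had separate groups, as had 6 of the 38 in all. Of these 6, 4 were higher, beside 4.56% of all genes, and 2 were lower, beside 4.63%.

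Because class II is mainly found in blood-derived cells, markers of such cells were read in the same libraries. All stromal markers, such as Col1a1 and Pdgfrb, and all markers of the other cell types were in both tables. The tables hold no gene with 0 reads in a knockout library, so a marker at 0 there would have been missing, and none was at 0 in a WT library. The 7 neutrophil markers summed to 431183 to 597741 normalised reads over the ANXA5 KO libraries and 307165 to 548891 over WT. The 9 stromal markers summed to 369331 to 517927 in ANXA5 KO and 201162 to 483344 in WT. Col1a1 alone held 77.5 to 85.9% of the stromal sum in ANXA5 KO and 60.7 to 82.9% in WT, and the other 8 stromal markers summed to 72995 to 83274 in ANXA5 KO and 79102 to 82768 in WT. Fewer cells of a type and less RNA per cell cannot be told apart in these bulk libraries.

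Macrophage markers had higher means in the ANXA5 KO libraries, as class II genes had. All 8 had a difference above 0, with a median of 0.40, and 6 were higher with an unadjusted p under 0.05, though 0 passed the limma threshold; of all genes, 52% lay above 0 and 6.48% were higher with such a p, to be read beside every marker count of ANXA5 KO. Their sum was 117606, 128706, 106888 and 123024 normalised reads in ANXA5 KO libraries 1 to 4, against 72058, 79183, 82985 and 113692 in WT, overlapping only through WT library 4. Lyz2, which neutrophils also express, held 90.99 to 93.3% of this sum in ANXA5 KO and 91.2 to 92.9% in WT. The other 7 macrophage markers, summed without Lyz2 after its share was seen, had 8878, 8576, 8788 and 11085 in ANXA5 KO, against 6321, 6576, 7246 and 8066 in WT, with no overlap. Csf1r, the receptor that macrophages need to survive, had 2863, 2695, 2856 and 3976 in ANXA5 KO, against 2134, 2155, 2270 and 2486 in WT. The summed reads of Cd74, H2-Aa, H2-Ab1 and H2-Eb1 were 23419, 23268, 22247 and 30425 in ANXA5 KO, against 17177, 20234, 17493 and 19267 in WT. Library 4, the highest ANXA5 KO library in the class II sum, was also the highest in Csf1r and in the macrophage sum without Lyz2. It was the highest in the dendritic cell sum, the endothelial sum and Ptprc too. The endothelial sum was 4103, 4446, 5629 and 6105 in ANXA5 KO libraries 1 to 4, against 3863, 3541, 4619 and 4019 in WT. Ptprc had 4855, 5678, 4776 and 6486 in ANXA5 KO, against 4312, 4857, 4315 and 4537 in WT. Library 2 was the highest ANXA5 KO library in Lyz2 and in the neutrophil and T and NK cell sums. Library 1 was the highest in the stromal sum. The B cell markers summed to 6790, 7358, 10865 and 8299 in ANXA5 KO libraries 1 to 4, against 6797, 9664, 8127 and 7870 in WT. Library 3 was the highest ANXA5 KO library in that sum and the lowest in the class II sum.

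Dendritic cell markers summed to 2466, 2519, 2445 and 3604 in ANXA5 KO libraries 1 to 4, against 2379, 2615, 2289 and 1978 in WT; 6 of 7 had a difference above 0, and Flt3 had an unadjusted p under 0.05. Of the B cell markers 5 of 6 and of the neutrophil markers 7 of 7 had a difference above 0, with 0 and 2 under an unadjusted p of 0.05. Of the 5 T and NK cell markers 4 lay above 0, 1 of them under that p. The pan-leukocyte gene Ptprc was higher with an unadjusted p under 0.05 (difference 0.26). Endothelial markers had a median difference of 1.25, the largest of these lists. For 4 of the 6 the groups were apart with ANXA5 KO higher, beside 3.01% of all genes. Of the 6, 5 were higher and 1 lower, all with an unadjusted p under 0.05, beside 6.48% and 5.45% of all genes. Of the 9 stromal markers 4 had a difference above 0 and 0 such a p. The part of these cells in the class II and class I differences was not tested.

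In the ANXA2 comparison library 4, which carried the class I and class II medians, had the highest sums of macrophage and neutrophil markers. Among ANXA2 KO libraries it was also highest for B cell markers (7447, against 6058 and 5400 in libraries 1 and 3). The same held for T and NK cell markers (1685, against 705 and 964) and Ptprc (5184, against 3232 and 3802). Library 3 was highest in the dendritic cell sum (2085, against 1880 in library 1 and 1906 in library 4). The macrophage sum was 65258, 88764 and 137535 in ANXA2 KO libraries 1, 3 and 4, against 65887, 72342, 75137 and 103681 in WT. Without Lyz2 it was 4765, 7316 and 8595 in ANXA2 KO, against 5779, 6008, 6561 and 7356 in WT, with library 4 again the highest. The neutrophil sum was 259880, 393488 and 631019 in ANXA2 KO, against 280860, 338512, 304140 and 500563 in WT. The class II sum ran in the same order across the ANXA2 KO libraries, at 16771, 20870 and 22286, against 15706, 18486, 15838 and 17570 in WT. Of the 8 macrophage markers 5 lay above 0 and of the 7 neutrophil markers 7, none with an unadjusted p under 0.05, beside 54.1% of all genes above 0. Of the 6 B cell markers 0 lay above 0, with 1 lower at an unadjusted p under 0.05, beside 4.04% of all genes. Above 0 lay 2 of 7 dendritic, 2 of 5 T and NK cell, 5 of 6 endothelial and 7 of 9 stromal markers. Ptprc lay below 0. Among these, only the stromal list had a marker under that p, 1 higher, beside 4.65% of all genes. The part of these cells in the ANXA2 values was not tested.

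**Figure D4:**
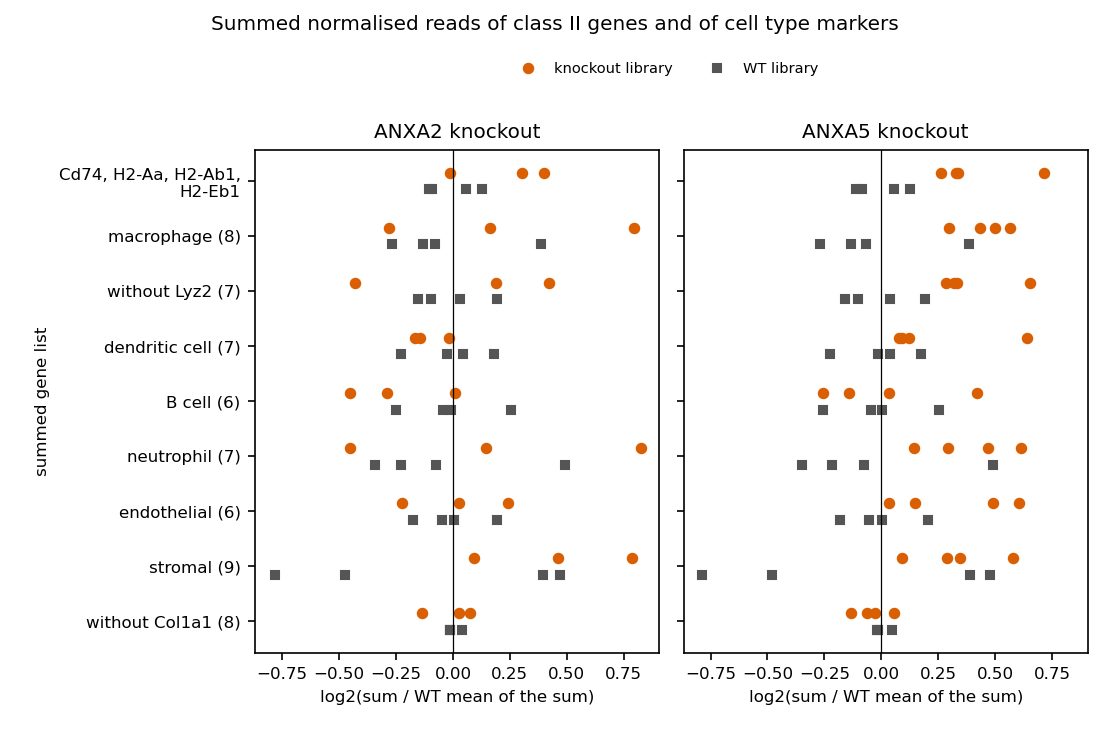
Summed normalised reads of 4 class II genes and of marker lists, as log2 of the sum over the WT mean of that sum. The lists are macrophage, with and without Lyz2, dendritic cell, B cell, neutrophil, endothelial, and stromal, with and without Col1a1. T and NK cell markers and Ptprc are not drawn. Circles are knockout libraries and squares WT libraries, drawn above and below each other, ANXA2 on the left and ANXA5 on the right. The number of markers in each list is in brackets. In the ANXA5 panel all class II sums lie above WT, and the macrophage sums overlap WT through 1 WT library with Lyz2 and not at all without it; in the ANXA2 panel the macrophage and neutrophil sums are highest in 1 knockout library.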

How the data were processed

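Libraries were grouped by the genotype in the labels: 3 ANXA2 KO, 4 ANXA5 KO and 4 WT. Trim Galore, STAR, HTSeq, DESeq2 and the build GRCm39 are listed, without versions, in the submitters' processing notes. Strand handling is not given in the sources used here. The signal values the authors deposited are read counts divided by a size factor; whole reads were recovered for 100% of values within 0.001. The authors also deposited log2 fold changes with p-values, raw and adjusted, and the score column (stat, per the file headers), opposite in sign to the fold change, was not used. In total 0 sample columns were left out.

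The filter asked for values of 10 or more in at least 3 libraries (ANXA2) or 4 (ANXA5). Genes that passed were tested with limma-trend on log2(value + 1). Differences of low genes could be larger or smaller in size than in edgeR. That of H2-Eb2 was 0.35 in limma and 0.09 in edgeR for ANXA5 KO, and 0.49 and 0.25 for ANXA2 KO. That of H2-Oa in ANXA2 KO was -0.10 in limma and -0.15 in edgeR. Benjamini-Hochberg adjustment ran over all genes, with 0.05 as the threshold. Alternatives were edgeR quasi-likelihood and DESeq2 on recovered reads, TMM scaling, pseudocounts of 0.5 and 5, no filter or a minimum of 50, a replicate block (by column number for ANXA2, added after the data were seen) and leaving out each library. R 4.3.3, limma 3.58.1, edgeR 4.0.16 and DESeq2 1.42.0 were used. On simulated data with 200 changed genes, limma found 69% of 2-fold and 100% of 4-fold changes in the ANXA2 comparison (16123 genes) and 87% and 100% in the ANXA5 comparison (16224 genes), at a cost of 11 (ANXA2) and 12 (ANXA5) false calls. The same simulation gave DESeq2 88% of 2-fold changes in the ANXA2 and 95% in the ANXA5 comparison, and 38 (ANXA2) and 43 (ANXA5) false calls. Recovery was measured for 2-fold and 4-fold changes only. The largest ratio of means among the antigen presentation genes was 1.56, for H2-Q7 in ANXA5 KO. The simulation therefore cannot tell how often differences of the sizes described here would be found.

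The genes, lists and tests were chosen with earlier results of these data known. Values in every library are given for 9 preset genes and the 3 smallest p in each comparison. Of the list of 38, the 2 smallest p in each direction are named. Lengths and shared windows of 50 bases came from GENCODE vM21 on GRCm38, promoters from RefSeq. Other genes named were chosen after their values were seen.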

Additional observations from a re-analysis of the deposited data

Results flagged for a closer look

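In the 4 libraries of a group, 1 value was far from the rest for 2 of the 84 sets of ANXA5 KO or WT values of the 42 genes; chance gives such a value in about 1 of 20 sets. Cd74 had 20233 normalised reads in ANXA5 KO library 4 and 15223 to 15435 in the other ANXA5 KO libraries. Rfxank, a subunit of the RFX complex, had 475 in WT library 3 and 448 to 451 in the other WT libraries.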

How the results depend on the processing

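DESeq2 called 104 genes in the ANXA2 comparison, against 18 by limma, and 282 in the ANXA5 comparison, against 5, with 5 of the 42 genes in place of 0 (adjusted p 0.0147 for Cd74, 0.00819 for H2-Q7, 0.00584 for Rfx5, 0.0181 for H2-DMb1 and 0.0255 for H2-Q6); over all alternatives their adjusted p reached 0.532. The cause was not tested. With single libraries left out, limma called 8 to 16 genes in the ANXA2 comparison (8 without ANXA2 KO library 3, 11 without WT library 2, 10 without WT library 4) and 4 to 32 in the ANXA5 comparison (32 without WT library 4, 8 without ANXA5 KO library 3), and 0 of the 42 genes each time. The class I median ranged from -0.04 to 0.12 and the class II median from -0.01 to 0.16 in ANXA2 KO, with -0.037 and -0.0091 without ANXA2 KO library 4, the only values below 0; in ANXA5 KO the class II median ranged from 0.23 to 0.38. With single libraries left out, signs turned only in ANXA2 KO, for H2-Aa (-0.14 to 0.14), H2-Eb1 (-0.029 to 0.33), Ciita (-0.16 to 0.25) and H2-Q7 (-0.15 to 0.13). Of 434 alternatives for 14 genes (those given in every library for both knockouts), 420 kept sign and call, 9 turned sign and 5 gained a call. At a minimum of 50, H2-Eb2 was not tested.

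ANXA5 KO and WT libraries share replicate numbers, but same-numbered libraries did not deviate together (correlations 0.05, -0.07, -0.25 and 0.07). A fit with the number as a replicate block called 8 genes, none of the 42. The ANXA2 KO columns carry numbers other than the titles. A replicate block on the column numbers, chosen after seeing the data, called 22 genes, none of the 42, and turned H2-Aa to 0.068; correlations of same-numbered columns were 0.31, 0.08 and 0.32, and libraries 1 and 4 but not 3 correlated best with their own number.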
